A study of Mus musculus with 6 samples.

Results

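The genes described here are 10 genes of the YAP-TEAD axis and of the CCN family, namely Ccn1, Ccn2, Ccn3, Ccn4, Ccn5, Ankrd1, Amotl2, Ajuba, Lats2 and Tead1. They were found by their symbols in a table of 17457 genes measured by RNA sequencing, and all 10 were present. The samples were mesenchymal stem cells (MSCs) from the long bones of 10-week-old female wild type C57BL/6J mice. Cultured MSCs (4 libraries) came from the mixed cells of collagenase-digested bone, which were grown for 10 days in MesenCult medium, detached and then sorted. Primary MSCs (2 libraries) were sorted from the same kind of digest without any culture. Both groups passed the same gate, negative for CD45, Ter119 and CD31 and positive for Sca-1 and PDGFRα. Each cultured library came from a pair of mice and each primary library from a pool of several mice, and the study's methods describe fewer cells for each primary library. Because a mixed population was grown before sorting, a change in which cells were present and a change of RNA within a cell cannot be told apart in these bulk samples.

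YAP and TAZ are coactivators that carry signals of cell spreading, matrix stiffness and cell contact into the nucleus. The kinases of the Hippo pathway, ending in LATS1 and LATS2, phosphorylate them and hold them in the cytoplasm, and unphosphorylated YAP and TAZ bind the TEAD transcription factors and switch on genes such as Ccn1, Ccn2 and Ankrd1. CCN proteins are secreted, modular matrix proteins that bind integrins and growth factors, and in the skeleton they act on the growth and differentiation of stromal cells, osteoblasts and chondrocytes.

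Values are FPKM, fragments scaled for transcript length and library size, which the authors deposited with 2 decimals. Library sums of FPKM ran from 612104 to 642497 for cultured MSCs and were 571471 and 559601 for primary MSCs, and the table gives no read counts, so the reads behind a single value are unknown. Of all genes, 11405 had at least 1 FPKM in at least 2 libraries and entered a limma fit of log2(FPKM + 0.1), where the added constant shrinks the fold changes of genes near 0. Rose and fell are used for cultured MSCs relative to primary MSCs and for genes with a p under 0.05 after Benjamini-Hochberg adjustment over every gene in the fit. By that rule 65.7% of the genes changed, 48.1% upward and 17.6% downward, and the log2 fold change of the median gene was 0.45.

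Of the 10 genes, 8 rose in cultured MSCs and 2, Ccn2 and Ccn3, fell. The libraries of both groups stood apart for all 10, with cultured MSCs higher for 8 (52.3% of all genes tested) and lower for 2 (20.4%), together 72.8% of all genes tested. Ankrd1 and Tead1 reached 1 FPKM in no primary library and Ajuba in 1 of the 2, so these 3 genes passed the minimum through the cultured libraries, the group where they are higher, and their share in the counts is no support for a change. The median log2 fold change of the 10 genes was 1.61. A log2 fold change of at least 2 at an adjusted p of at most 0.01 was reached by 4 genes (Ankrd1, Ajuba, Ccn5 and Amotl2, all higher), against 14.3% of all genes tested, 8.36% as higher and 5.95% as lower. That count depended on scaling. Ccn5 (1.99) and Amotl2 (1.87) stayed under 2 with median ratio scaling, as did Amotl2 (1.85) with quantile normalization.

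**Figure D1:**
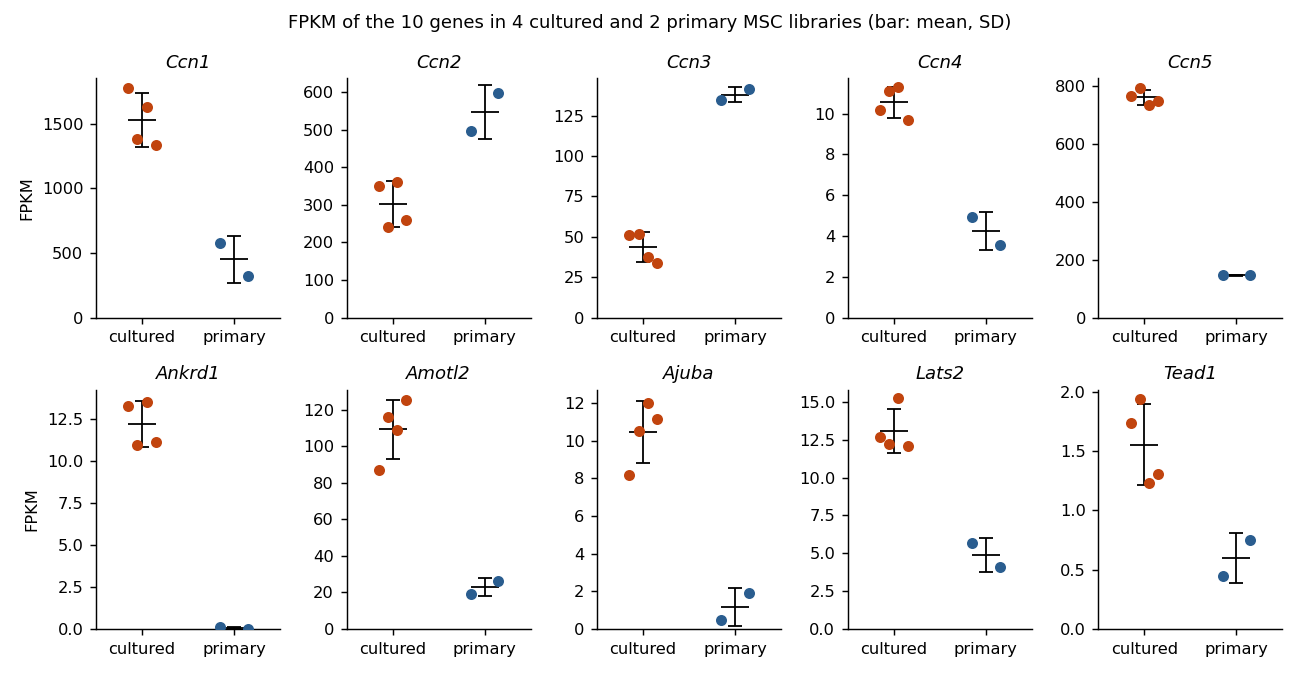
FPKM of each of the 10 genes in the 4 cultured libraries (left in each panel) and the 2 primary libraries (right), on linear axes that start at 0. Points are libraries, and the horizontal bar and whiskers are the mean and SD. The cultured points lie above both primary points in 8 panels and below them for Ccn2 and Ccn3.

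**Figure D2:**
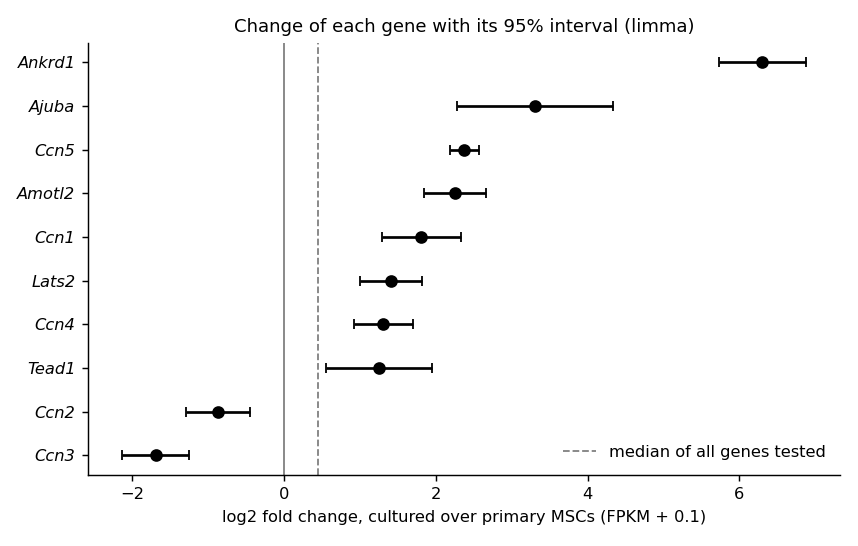
Log2 fold change of cultured over primary MSCs for each gene, with its 95% interval from limma. The solid line marks no change and the dashed line the median of all genes tested, 0.45. Ankrd1 lies farthest to the right at 6.30, and Ccn2 and Ccn3 lie to the left of both lines.

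Markers of other cells moved between the groups as well. The summed FPKM of 12 macrophage markers was 104 to 329.8 in the cultured libraries, lowest in replicate 3. It was 34.19 and 33.15 in the primary libraries. Of the 11 tested, 10 rose, against 48.1% of all genes tested. Among these, Adgre1, Csf1r, C1qa, C1qb, C1qc, Mrc1 and Tyrobp reached 1 FPKM in no primary library and Fcer1g in 1. They passed the minimum through the cultured libraries, where they are higher, so their share in the count is no support for a change. Lyz2, the myeloid lysozyme, had 60.57 to 221.30 FPKM in cultured MSCs and 11.81 and 18.10 in primary MSCs. The sum of 7 osteoblast and osteocyte markers in the table was 33.7 to 42.3 FPKM in cultured MSCs and 1410.4 and 642 in primary MSCs, with Ibsp at 7.22 to 9.42 FPKM in cultured MSCs and at 1032 and 411 in primary MSCs. Chondrocyte markers summed to 985 to 1526 FPKM in cultured MSCs and to 3848 and 5413 in primary MSCs. Of these, Comp, the cartilage oligomeric matrix protein, had 561 to 735 FPKM in cultured MSCs and 3574 and 5310.3 in primary MSCs, but Col2a1, the collagen of cartilage, had 331 to 723 FPKM in cultured MSCs and 171 and 37.98 in primary MSCs. Hba-a1 and Hba-a2, near-identical copies of alpha-globin, led 7 erythroid markers that summed to 0.20 to 0.61 FPKM in cultured MSCs and to 239 and 149.8 in primary MSCs. The 11 endothelial markers summed to 6.52 to 7.55 FPKM in cultured MSCs and to 6.40 and 7.31 in primary MSCs, where Cldn5 was at 0 in all libraries and Pecam1 (CD31) had 0.02 to 0.08 FPKM in cultured MSCs and 0.18 and 0.62 in primary MSCs. Single endothelial markers moved in opposite directions, with Egfl7 at 4.79 to 5.09 FPKM in cultured MSCs and at 0.70 and 0.03 in primary MSCs, and Tek at 0 to 0.22 FPKM in cultured MSCs and at 2.71 and 3.70 in primary MSCs. The 6 mural markers summed to 27.43 to 45.97 FPKM in cultured MSCs and to 50.46 and 60.64 in primary MSCs, with Rgs5 at 0.13 to 0.58 FPKM in cultured MSCs and at 21.37 and 10.09 in primary MSCs. Cspg4, the most abundant of them, overlapped between the groups, at 26.41 to 44.81 FPKM in cultured MSCs and at 25.43 and 47.03 in primary MSCs. Ptprc (CD45) stood at 0.12 to 0.47 FPKM in cultured MSCs and at 0 and 0.02 in primary MSCs. The sort markers were present, with Ly6a (Sca-1) at 1117 to 1189.6 FPKM in cultured MSCs and at 1056 and 1711 in primary MSCs, and Pdgfra at 35.48 to 43.08 FPKM in cultured MSCs and at 66.84 and 72.65 in primary MSCs. The part of these cells in the changes below was not tested.

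The 5 CCN genes split, with Ccn1, Ccn4 and Ccn5 higher and Ccn2 and Ccn3 lower in cultured MSCs. Ccn1 (chr3:145646971-145649985, GRCm38.p6), formerly Cyr61, encodes an integrin-binding matrix protein and is induced rapidly by growth factors and by stretch. It had 1776, 1383, 1632 and 1337 FPKM in the cultured libraries, against 579 and 323 in the primary libraries. Every cultured library exceeded the higher primary library by more than the spread within either group, and Ccn1 ranked 44th of 17457 genes by mean FPKM in cultured MSCs and 176th in primary MSCs. Its log2 fold change was 1.81 (standard error 0.23, limma adjusted p = 0.000216).

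Ccn2 (chr10:24595442-24598683), formerly Ctgf, encodes connective tissue growth factor, a mediator of fibrotic and chondrogenic matrix production. It had 349.7, 242, 359.9 and 259.6 FPKM in the cultured libraries, against 497 and 597 in the primary libraries. All cultured values thus lay below the lower primary value, and the log2 fold change was -0.87 (standard error 0.18, adjusted p = 0.00358). It ranked 373rd by mean FPKM in cultured MSCs and 144th in primary MSCs. Ccn1 and Ccn2, both long-standing readouts of YAP-TEAD activity, thus changed in opposite directions.

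Since a ratio of genes within a library does not depend on how libraries are scaled, Ccn1 was also set against Ccn2 in each library. Ccn1 over Ccn2 was 5.08, 5.71, 4.54 and 5.15 in the cultured libraries, against 1.17 and 0.542 in the primary libraries. The ratio averaged 5.12 ± 0.482 (SD, n = 4) in cultured MSCs, against 0.854 ± 0.442 (SD, n = 2) in primary MSCs. A two-sided exact permutation test of this ratio gave p = 0.0667, the smallest value that 4 libraries against 2 allow. Since Ccn1 was higher and Ccn2 lower in every cultured library, the ratio had to stand apart, and this p adds no support.

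Ccn3 (chr15:54745910-54753762), formerly Nov, encodes a family member that often opposes CCN2 and restrains proliferation. It had 51.15, 52.00, 37.29 and 33.64 FPKM in the cultured libraries, against 134.65 and 141.22 in the primary libraries. Its primary level was 3.17 times its cultured level by the group means, and the log2 fold change was -1.69 (standard error 0.19, adjusted p = 0.000121). Relative to the median gene, the change of Ccn3 was -2.13 and that of Ccn2 -1.31 on the log2 scale.

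Ccn5 (chr2:163820752-163833146), formerly Wisp2, encodes the family member that lacks the C-terminal cystine-knot module. It varied least of the 10 genes among the cultured libraries, with 764, 792, 734.5 and 745 FPKM in the cultured libraries, against 147 and 145 in the primary libraries. The coefficient of variation was 3.31% over the cultured libraries, and the log2 fold change was 2.38 (standard error 0.083, adjusted p = 4.06e-07). Ccn5 over Ccn3 was 18.0 ± 3.53 (SD, n = 4) in cultured MSCs and, with both genes at nearly the same level, 1.06 ± 0.0441 (SD, n = 2) in primary MSCs (exact permutation p = 0.0667). Here too both genes already stood apart, in opposite directions, so this p adds no support.

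Ccn4 (chr15:66891369-66923201), formerly Wisp1, is a target of Wnt signalling that is expressed by osteoblast precursors. It was the least abundant of the 5, with 10.19, 11.10, 11.30 and 9.69 FPKM in the cultured libraries, against 4.91 and 3.57 in the primary libraries. Its log2 fold change was 1.31 (standard error 0.17, adjusted p = 0.000259), while the summed osteoblast markers given above were lower in cultured MSCs. The remaining gene of the family, Ccn6, was not among the 10 and was too weak to be tested, at 0 to 0.08 FPKM in cultured MSCs and at 0.62 and 0.38 in primary MSCs.

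Summed over Ccn1 to Ccn5, CCN transcripts had 2951, 2480.4, 2775 and 2385 FPKM in the cultured libraries, against 1362 and 1211 in the primary libraries. The ratio of the group means was 2.06, and 1.57 with median ratio scaling. In cultured MSCs Ccn1 held 57.7% ± 2.15 of that sum, Ccn5 28.9% ± 3.15, Ccn2 11.4% ± 1.37 and Ccn3 1.65% ± 0.345 (SD, n = 4). In primary MSCs Ccn1 held 34.6% ± 11.2, Ccn5 11.4% ± 0.858, Ccn2 42.9% ± 9.11 and Ccn3 10.8% ± 1.26 (SD, n = 2). The family's leading transcript was thus Ccn1 in each cultured library, and in the primary libraries it was Ccn1 in replicate 1 and Ccn2 in replicate 2. The share of Ccn4 was 0.345% to 0.448% in cultured MSCs and 0.360% and 0.295% in primary MSCs, and these ranges overlapped.

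**Figure D3:**
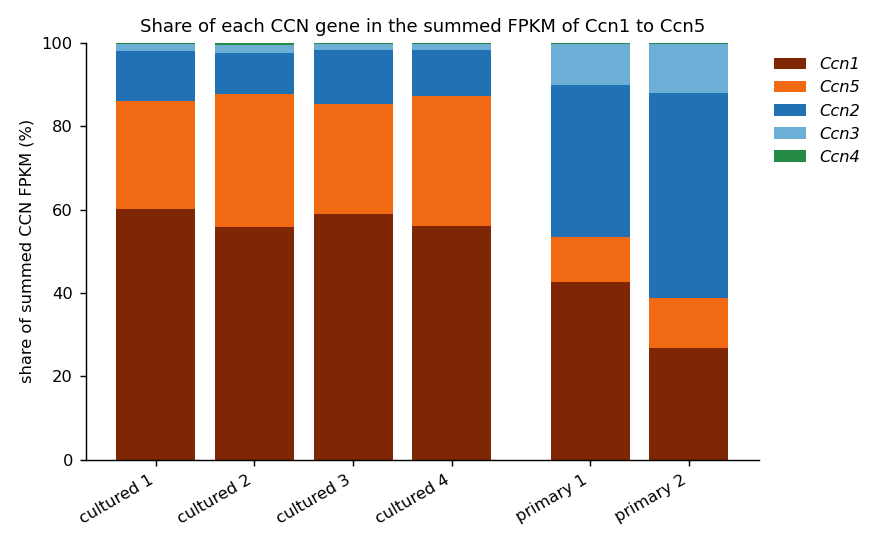
Stacked bars give the share of Ccn1, Ccn5, Ccn2, Ccn3 and Ccn4, from the bottom, in the summed FPKM of these 5 genes in each library, in percent, with the 4 cultured libraries left of the 2 primary libraries. Ccn1 and Ccn5 together fill most of each cultured bar, whereas Ccn2 and Ccn3 are larger in the primary bars, where the Ccn1 share differs between replicates at 42.5% and 26.7%.

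Among the intracellular genes, Ankrd1 showed the largest fold change of the 10. Ankrd1 (chr19:36111965-36119844) encodes the cardiac ankyrin repeat protein, a stretch-responsive nuclear and sarcomeric protein and a standard readout of YAP activity. It had 13.27, 10.93, 13.49 and 11.11 FPKM in the cultured libraries, against 0.10 and 0.02 in the primary libraries. It was close to the smallest value that the table resolves, 0.01 FPKM, in primary MSCs and ranked 5045th by mean FPKM in cultured MSCs. The log2 fold change was 6.30 (standard error 0.25, adjusted p = 7.6e-07), and it depended on the pseudocount, at 7.72 with 0.01 and 3.63 with 1 FPKM. Muscle also expresses Ankrd1, and 8 skeletal muscle markers summed to 5.72 to 9.91 FPKM in cultured MSCs and to 7.80 and 4.54 in primary MSCs, with the fibre myosin Myh1 at 0 to 0.02 FPKM in cultured MSCs and at 0 in both primary libraries. Acta1, skeletal actin, was higher at 2.12 to 5.46 FPKM in cultured MSCs and 0.03 and 0.10 in primary MSCs. Mylpf, a light chain of fast muscle myosin, had 1.95 to 3.87 FPKM in cultured MSCs and 1.26 and 1.55 in primary MSCs (adjusted p = 0.0501, under 0.05 in 4 alternatives), and Tnnt3, a troponin, fell, with 0.97 to 2.21 FPKM in cultured MSCs and 3.52 and 2.64 in primary MSCs. The part of muscle RNA in the level of Ankrd1 was not tested.

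Amotl2 (chr9:102717091-102733418) encodes an angiomotin, a scaffold that binds YAP and is itself induced by YAP. It had 87.02, 116.19, 109.14 and 125.22 FPKM in the cultured libraries, against 19.38 and 26.36 in the primary libraries. The lowest cultured value was more than 3 times the higher primary value, and the log2 fold change was 2.26 (standard error 0.18, adjusted p = 1.82e-05). Among its relatives, Amotl1 had 9.46 to 10.15 FPKM in cultured MSCs and 15.42 and 10.59 in primary MSCs, a difference of -0.38 that missed the test (adjusted p = 0.0772) but passed as lower with median ratio scaling (-0.76), quantile normalization (-0.76), rescaling to TPM (-0.52) and without primary replicate 2 (-0.65). Amot, the founding member, rose at low levels and reached 1 FPKM in cultured libraries only, with 2.02 to 2.94 FPKM in cultured MSCs and 0.54 and 0.93 in primary MSCs. Amotl2 made up 89.8% ± 1.28 (SD, n = 4) of the summed angiomotin FPKM in cultured MSCs, against 62.2% ± 10.4 (SD, n = 2) in primary MSCs.

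Ajuba (chr14:54567469-54577661) encodes a LIM-domain protein of adhesion sites that binds LATS kinases and lowers their activity. It had 8.16, 10.55, 12.02 and 11.14 FPKM in the cultured libraries, against 0.46 and 1.89 in the primary libraries. The groups stood apart, but the primary libraries differed from each other, and the log2 fold change of 3.31, with a standard error of 0.44 (adjusted p = 0.000322) became 2.39 without primary replicate 1, 4.22 without primary replicate 2 and 2.47 with a pseudocount of 1. Limd1, its closest relative, had 7.33 to 11.08 FPKM in cultured MSCs and 9.59 and 8.81 in primary MSCs (log2 fold change 0.0012, adjusted p = 0.996, 95% interval -0.41 to 0.42). Wtip, the third of the family, had 0.72 to 1.18 FPKM in cultured MSCs and 2.98 and 1.25 in primary MSCs (-0.92, adjusted p = 0.0565), and passed as lower with 1 FPKM as pseudocount and under all 3 other scalings, and without primary replicate 2. Ajuba made up 50.4% ± 2.90 (SD, n = 4) of the summed FPKM of these genes in cultured MSCs, against 9.67% ± 8.69 (SD, n = 2) in primary MSCs.

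Lats2 (chr14:57689662-57746212) encodes a kinase that phosphorylates YAP and TAZ and is also one of their targets, which closes a negative feedback loop. It had 12.71, 12.22, 15.23 and 12.10 FPKM in the cultured libraries, against 5.66 and 4.11 in the primary libraries. The log2 fold change was 1.41 (standard error 0.18, adjusted p = 0.000212), 0.97 above that of the median gene. Its paralog Lats1 had 2.29 to 2.72 FPKM in cultured MSCs and 3.12 and 1.21 in primary MSCs, with a log2 fold change of 0.33 that missed the test (adjusted p = 0.42), was 0.98 and passed without primary replicate 1, and was -0.32 without primary replicate 2. Lats2 over Lats1 was 5.31 ± 0.933 (SD, n = 4) in cultured MSCs, against 2.61 ± 1.12 (SD, n = 2) in primary MSCs, without overlap (exact permutation p = 0.0667).

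Tead1 (chr7:112679356-112906784) encodes one of the DNA-binding partners of YAP and TAZ and was the weakest of the 10 genes in cultured MSCs. It had 1.74, 1.94, 1.23 and 1.31 FPKM in the cultured libraries, against 0.45 and 0.75 in the primary libraries. The log2 fold change was 1.25 (standard error 0.30, adjusted p = 0.00689), and 0.67 with a pseudocount of 1 FPKM. Tead4, which is not among the 10, had 1.78 to 3.00 FPKM in the cultured libraries and was listed at 0 and 0.02 in the primary libraries (log2 fold change 4.50 with 0.1, 7.10 with a pseudocount of 0.01 and 1.74 with 1 FPKM, adjusted p = 7.84e-06), and it met the minimum through the cultured libraries, where it is higher. Tead2 had 1.62 to 2.76 FPKM in cultured MSCs and 1.57 and 1.59 in primary MSCs (0.42, adjusted p = 0.192), and Tead3 had 0.83 to 1.94 FPKM in cultured MSCs and 1.41 and 0.99 in primary MSCs (0.20, adjusted p = 0.633), a sign that turned with median ratio scaling and quantile normalization. Tead4 made up 31.6% ± 1.98 (SD, n = 4) of the summed TEAD FPKM in cultured MSCs and 0 and 0.597% in primary MSCs, while Tead1 made up 21.3% ± 7.32 (SD, n = 4) in cultured MSCs, against 17.8% ± 6.55 (SD, n = 2) in primary MSCs, with overlap (exact permutation p = 0.467).

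**Figure D4:**
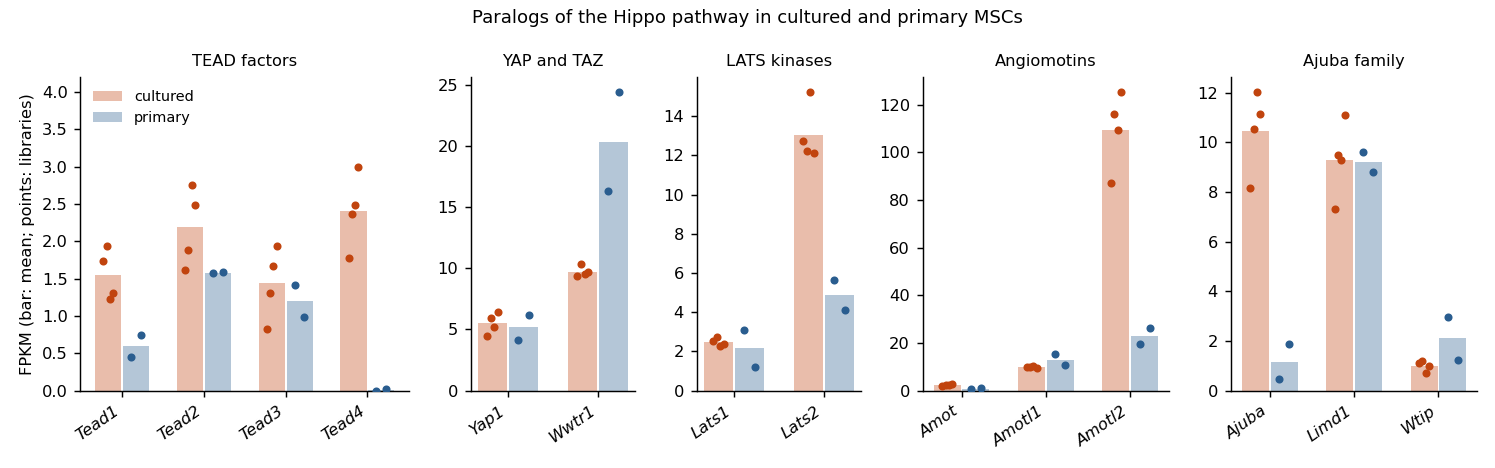
FPKM of the TEAD factors, YAP and TAZ (Yap1 and Wwtr1), LATS kinases, angiomotins and the Ajuba family, with cultured MSCs left of primary MSCs for each gene. Bars are means, points are the 4 cultured and 2 primary libraries, and each panel has its own axis from 0. Lats2, Amotl2 and Ajuba are taller in cultured MSCs while the points of Lats1 and Limd1 overlap between groups, and Tead4 is nearly absent from primary MSCs.

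Ordered by mean FPKM, the 10 genes ran Ccn1, Ccn5, Ccn2, Amotl2, Ccn3, Lats2, Ankrd1, Ccn4, Ajuba and Tead1 in cultured MSCs. From Lats2 to Ajuba the ranges of neighbours overlapped over the 4 libraries, and the other neighbours stood apart. In primary MSCs the order was Ccn2, Ccn1, Ccn5, Ccn3, Amotl2, Lats2, Ccn4, Ajuba, Tead1 and Ankrd1. There the ranges of Ccn2 and Ccn1, of Lats2 and Ccn4 and of Ajuba and Tead1 overlapped over the 2 libraries.

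Promoter windows were examined for the letters CATTCC, the core of the site that TEAD factors bind (on the other strand GGAATG). RefSeq windows (GRCm38.p6, 250 bases before to 50 after the start) matched 5 of the 10 genes, namely Ccn1, Ankrd1, Amotl2, Ajuba and Lats2. Each of these 5 held CATTCC in a window (Lats2 in 1 of its 2), with 7 matches in all, against 14.7% of 32851 windows of all genes. The 5 were chosen as genes of the YAP-TEAD axis and are counted by gene, whereas the share counts windows, so this is no test. None of the 5 held the CArG box that binds SRF (1.63% of windows) or the AP-1 motif TGANTCA (7.81% of windows), so no match overlapped another motif. The matches are given here with 10 bases on each side, read on the strand where the motif is spelled CATTCC, which stands in capitals.
Ccn1, chr3:145650083-145650088: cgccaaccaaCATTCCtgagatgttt
Ankrd1, chr19:36120049-36120054: gtgagagggtCATTCCtttggcagtg
Ankrd1, chr19:36119962-36119967: ggtgaattttCATTCCagacttagtg
Amotl2, chr9:102717739-102717744: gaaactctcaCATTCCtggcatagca
Ajuba, chr14:54577842-54577847: ttgatggataCATTCCacagtgcccc
Ajuba, chr14:54577820-54577825: cccctccgcgCATTCCaactgtaaac
Lats2, chr14:57746114-57746119: acattgttggCATTCCacgggcgtca
In the GENCODE annotation of the same build the matches of Ccn1 and Ajuba lay outside exons, while those of Ankrd1, Amotl2 and Lats2 overlapped an annotated exon of the same gene. The match of Ccn1 lay at bases -103 to -98 from the start and those of Ajuba at -186 to -181 and -164 to -159. A match is a run of letters, and binding of TEAD was not measured in these samples.

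The full 250 bases before the start are shown for Ccn1 and Ajuba, where CATTCC lay in a stretch without an annotated exon, on the strand of the gene with CATTCC in capitals.
Ccn1, chr3:145649986-145650235, minus strand: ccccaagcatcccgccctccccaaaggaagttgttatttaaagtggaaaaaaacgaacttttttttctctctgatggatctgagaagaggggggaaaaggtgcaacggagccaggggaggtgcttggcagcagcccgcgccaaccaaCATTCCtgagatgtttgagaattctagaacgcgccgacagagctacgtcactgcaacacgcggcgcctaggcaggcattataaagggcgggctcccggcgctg
Ajuba, chr14:54577662-54577911, minus strand: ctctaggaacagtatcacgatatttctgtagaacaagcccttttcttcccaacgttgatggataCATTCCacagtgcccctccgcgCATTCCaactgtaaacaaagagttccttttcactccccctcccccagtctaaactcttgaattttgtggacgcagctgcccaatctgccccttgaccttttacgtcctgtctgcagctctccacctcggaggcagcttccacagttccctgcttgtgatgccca

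Neither coactivator passed the test as higher. Yap1 had 4.47 to 6.40 FPKM in cultured MSCs and 4.15 and 6.22 in primary MSCs, with a log2 fold change of 0.10 that missed the test (adjusted p = 0.708, 95% interval -0.41 to 0.61) and turned negative under all 3 other scalings. Wwtr1, which encodes TAZ, fell, with 9.36 to 10.32 FPKM in cultured MSCs and 16.29 and 24.39 in primary MSCs (log2 fold change -1.03, standard error 0.17, adjusted p = 0.00102). Wwtr1 over Yap1 was 1.79 ± 0.238 (SD, n = 4) in cultured MSCs, against 3.92 ± 0.00288 (SD, n = 2) in primary MSCs. Of 7 tested genes of YAP, TAZ, the other TEAD factors and the VGLL cofactors, which bind TEAD, 2 rose, 2 fell and 3 did not pass. Among all genes the shares were 48.1% higher and 17.6% lower. Vgll3 rose, with 29.41 to 37.48 FPKM in cultured MSCs and 2.06 and 2.11 in primary MSCs (3.95, adjusted p = 3.96e-07), and Vgll4, a repressor of TEAD, was lower at -0.42 (adjusted p = 0.0243), a call lost without primary replicate 2 (adjusted p = 0.127) or cultured replicate 3 (adjusted p = 0.0611) and with the replicate block (adjusted p = 0.0659).

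Most other genes of the Hippo cascade did not pass the test. Of 21 listed, 19 were tested, of which 6 rose, 1 fell and 12 did not pass, with a median of 0.26 against 0.45 for all genes. Of all genes, 48.1% rose and 17.6% fell. Median ratio scaling left 3 higher and 4 lower. Fat4, a giant cadherin upstream of the pathway, had 2.77 to 3.63 FPKM in cultured MSCs and 0.71 and 1.27 in primary MSCs, whereas its ligand Dchs1 fell to 0.03 to 0.08 FPKM in cultured MSCs, against 2.38 and 4.38 in primary MSCs. The log2 fold change of Dchs1 was -4.39, -2.01 with a pseudocount of 1, and it did not meet the minimum once either primary library was left out. Ptpn14, a phosphatase that binds YAP and is also one of its targets, rose, with 4.58 to 5.09 FPKM in cultured MSCs and 2.03 and 2.00 in primary MSCs.

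Other YAP and TAZ targets were taken from a general signature without the 10 genes, and Ptpn14 is counted here as well as in the cascade. Of 16 tested, 9 rose, 3 fell and 4 did not pass, shares close to the 48.1% and 17.6% of all genes, and their median log2 fold change was 0.92. Nuak2, a kinase, had 9.35 to 12.99 FPKM in cultured MSCs and 2.53 and 2.58 in primary MSCs (2.10, adjusted p = 2.09e-05). Foxf2 and Dock5 rose by 2.02 and 1.66, and by 1.25 and 0.97 with a pseudocount of 1, and both reached 1 FPKM in cultured libraries only. Those that fell were Rbms3 (-0.94), the receptor tyrosine kinase Axl (-0.82) and Nt5e (-0.82), which encodes the surface marker CD73. Axl had 128 to 161 FPKM in cultured MSCs and 219 and 306 in primary MSCs.

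SRF and its coactivators MRTF share targets such as Ankrd1 and Ccn1 with YAP, and were listed together with actin-related genes. Of 16 tested, 14 rose and 2 did not pass (48.1% of all genes rose), with a median of 1.63, although 1 passed as lower with median ratio scaling or quantile normalization. Those that did not pass were Srf itself (0.12, adjusted p = 0.662) and Mrtfb (-0.15, adjusted p = 0.46), whereas Mrtfa rose by 1.06. Acta2, smooth muscle actin, had 281 to 316 FPKM in cultured MSCs and 27.33 and 13.10 in primary MSCs (3.97, adjusted p = 6.16e-06), and Cnn2 (calponin 2) had 291 to 358 FPKM in cultured MSCs and 36.49 and 41.96 in primary MSCs. Cnn1 rose by 4.09, with 5.92 to 10.61 FPKM in cultured MSCs and 1.61 and 0.03 in primary MSCs, and by 2.23 without primary replicate 2 and 5.95 without primary replicate 1. Both Acta2 and Cnn1 are also smooth muscle genes. The mural sums given above were lower in cultured MSCs, although Cspg4, the most abundant mural marker, overlapped between the groups. The part of mural cells in the values of Acta2 and Cnn1 was not tested.

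Of 10 receptors that bind CCN proteins, 4 were higher and 3 lower, together close to the 65.7% of all genes that changed. Itgav, the alpha-v integrin, had 17.06 to 33.02 FPKM in cultured MSCs and 8.42 and 6.26 in primary MSCs, but Itgb3, the beta-3 chain with which it binds CCN1 and CCN2, fell to 0.55 to 1.25 FPKM in cultured MSCs, against 12.76 and 13.18 in primary MSCs. Itgb1 and Itga6 rose by 1.65 and 1.30 on the log2 scale. Lrp1, an endocytic receptor of CCN2, was lower at -1.25, and Itga5 was lower at -0.47, a call that was lost without primary replicate 2 (adjusted p = 0.167), cultured replicate 1 (adjusted p = 0.0567) or cultured replicate 3 (adjusted p = 0.0597) and with variances moderated without a trend (adjusted p = 0.053).

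Immediate early genes, a class that includes Ccn1 in other cells and that is induced by tissue digestion among other stimuli, mostly fell in cultured MSCs. Of 23 tested, 16 fell, 1 rose and 6 did not pass (17.6% of all genes fell and 48.1% rose). The median was -1.76, and 12 to 20 fell when a library was left out. Fos had 52.60 to 71.89 FPKM in cultured MSCs and 1866 and 675 in primary MSCs (-4.19, and -3.45 and -4.92 without primary replicates 1 and 2), and Atf3 was lower at -4.27 and Fosb at -5.22 (-4.62 and -5.82 without primary replicates 1 and 2), whereas Ier2 rose by 1.28 (1.80 and 0.76 without primary replicates 1 and 2). The summed FPKM of the 24 listed genes was 1057 to 1314 in cultured MSCs and 4931 and 2123 in primary MSCs. Within the primary libraries replicate 1 had the higher sum and also the higher Ccn1, while Ccn2 was higher in replicate 2. Ccn1 rose while most of these genes fell, and their part in the levels of Ccn1 and Ccn2 was not tested.

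**Figure D5:**
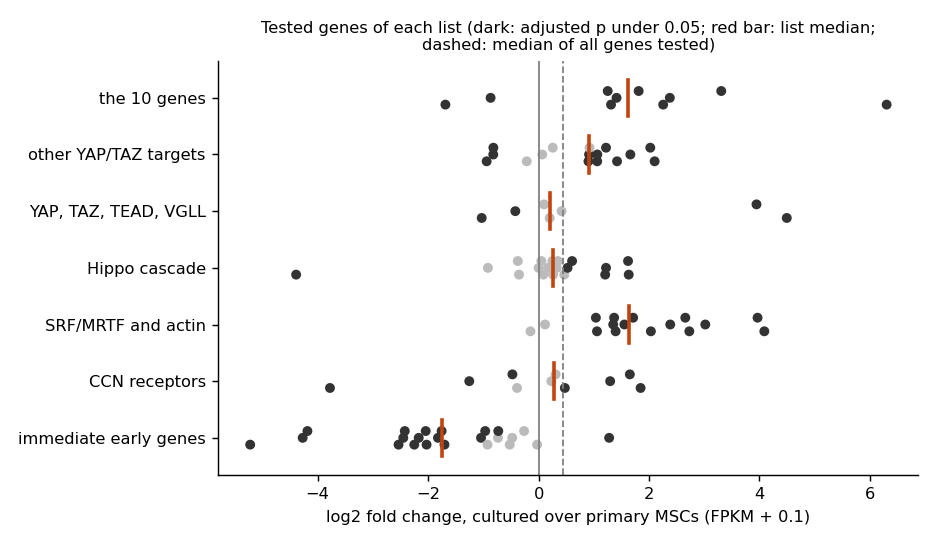
Log2 fold change of cultured over primary MSCs for each tested gene of 7 lists, 1 row per list. Dark points had an adjusted p under 0.05 and grey points did not, the red bar is the median of the list, and the dashed line is the median of all genes tested at 0.45. The 10 genes and the SRF/MRTF list lie mostly to the right, at medians of 1.61 and 1.63, the Hippo cascade centres near 0.26 and the immediate early genes near -1.76.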

How the data were processed

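FPKM values were those deposited by the authors, who cleaned reads with SOAPnuke, aligned them to GRCm38.p6 (HISAT2 2.0.4) and to reference genes (Bowtie2 2.2.5), and estimated gene levels with RSEM 1.2.8 from SMART-Seq v4 libraries. A column of log2 fold changes computed by the authors, per the methods with DESeq2, was not used. Libraries were grouped by their titles. Genes reaching 1 FPKM in 2 or more libraries were fitted with limma 3.58.1 in R 4.3.3 on log2(FPKM + 0.1), with 2 groups, moderated variances with a trend and 4 residual degrees of freedom. The fit was tested on simulated data in which few genes changed, as many up as down. That setting does not cover a change of most genes, as found here. An exact permutation test of 4 against 2 libraries cannot give a p under 0.0667. P-values set the difference between the groups against the spread between libraries. Each library came from a pair or a pool of mice, so the spread between single mice was not measured.

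The 10 genes, gene lists and tests were chosen with earlier results of these data known. Named were the 10 genes, their paralogs and partners, the 3 largest called changes in each direction of each other list, and the most abundant markers of other cells. Alternatives were pseudocounts of 0.01 and 1, filters, scalings, no trend, a replicate block and leaving out each library. Coordinates and promoters came from RefSeq. Figures used Python 3.11.15 and matplotlib 3.10.9.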

Additional observations from a re-analysis of the deposited data

Results flagged for a closer look

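Of 64 named genes checked for a cultured library far from the other 3, 1 was marked, by a check that marks about 5% of groups by chance. Hba-a2, an alpha-globin gene used as an erythroid marker, stood at 0.18 FPKM in cultured replicate 3 and at 0 in the other cultured libraries, against 72.40 and 47.86 FPKM in primary MSCs. With the other cultured libraries all at 0, any value above 0 would be marked, so the 5% does not apply to this gene. None of the 10 YAP-TEAD and CCN genes had such a library.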

How the results depend on the processing

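The call and direction of all 10 genes held in all 150 combinations of gene and alternative, with 8 higher and 2 lower each time. Ankrd1, Tead1 and Ajuba passed the minimum through the cultured libraries, so their part in this count is no support for a change. Scaling mattered most for counts. Over all genes 5485 rose and 2008 fell. The counts were 3497 and 3189 under median ratio scaling and 3656 and 3039 under quantile normalization. For the Hippo cascade, 3 rose with median ratio scaling, and 4 fell with it or with quantile normalization, 3 with rescaling to TPM and 2 with a pseudocount of 1, and 0 to 2 fell when a library was left out. Of the SRF and MRTF genes, 1 fell with median ratio scaling and 1 with quantile normalization. Leaving out a library left 1 to 2 of the YAP, TAZ, TEAD and VGLL genes lower and 1 to 2 immediate early genes higher. The ratio of CCN sums was 1.57 with median ratio scaling and 1.94 to 2.19 when a library was left out.

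The genes whose direction turned had missed the test as reported, and none passed in the turned direction. With median ratio scaling the log2 fold change was -0.16 for Tead3, -0.28 for Yap1, -0.045 for Lats1, -0.39 for Limd1, -0.12 for Erg and -0.21 for Cxcl12. Quantile normalization gave -0.033 for Tead3, -0.22 for Yap1, -0.36 for Limd1 and -0.25 for Cxcl12, and rescaling to TPM -0.039 for Yap1 and -0.14 for Limd1. Leaving out a library gave -0.034 to 0.44 for Tead3, -0.19 to 0.39 for Yap1, -0.32 to 0.98 for Lats1, -0.087 to 0.11 for Limd1, -0.28 to 0.78 for Erg, -0.56 to 0.14 for Ly6a and -0.48 to 0.41 for Cspg4. The cause was not tested.

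Both groups carry the replicate numbers 1 and 2, which name no shared animal, so the numbers were not taken as pairs. Deviations from the group means correlated at 0.12 for the libraries numbered 1 and 0.052 for those numbered 2. These values cannot decide on pairing, since the deviations of 2 primary libraries mirror each other. Cultured replicate 4 and primary replicate 2 correlated at 0.11. With the replicate block, 4594 genes rose and 1597 fell, 1 of the YAP, TAZ, TEAD and VGLL genes fell, and the log2 fold change was -0.16 for Tead3, -0.14 for Limd1 and -0.039 for Erg. Ankrd1 at 0.10 and 0.02 FPKM and Tead4 at 0 and 0.02 FPKM in primary MSCs lie at or under the pseudocount of 0.1, and the size of their change moves with it. Read depth is not known from the table.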

Other observations

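Among the cultured libraries, Ccn1, Ccn2, Ankrd1 and Lats2 were all higher in replicates 1 and 3 than in replicates 2 and 4, as were 19.5% of all genes tested. This order was noticed after the values were seen, and no label sets these libraries apart. The same order was found for 13 of 23 immediate early genes, among them, named after their values were seen, Egr1, at 251 and 227 FPKM in replicates 1 and 3 and at 197 and 183 in replicates 2 and 4, and Nr4a1, at 41.31 and 52.77 FPKM in replicates 1 and 3 and at 11.70 and 15.44 in replicates 2 and 4. The opposite order, found for 17.9% of all genes tested, held for Amotl2, Yap1, Wwtr1 and Vgll4 and for 7 of 19 Hippo cascade genes and 8 of 16 other YAP and TAZ targets. These are descriptions of 4 libraries, with no test.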
